A study of Mus musculus with 16 samples.

Results

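The genes described are 9 of the retinoic acid system among the 23999 in a table of raw counts: Aldh1a1, Aldh1a2 and Aldh1a3, which make retinoic acid, the receptor genes Rara, Rarb, Rarg and Rxra, the retinol carrier Rbp4, and Cyp26b1, which breaks retinoic acid down. They were chosen by the measured level of Aldh1a3, which was high in a single tumour, so that level is a description and was not tested. Poly(A) RNA was sequenced from mouse myeloid sarcomas, which are masses that acute myeloid leukaemia forms in other tissues, and from whole bone marrow that the leukaemia had infiltrated. All animals carried NPM1cA, the cytoplasmic mutant form of nucleophosmin that is common in human acute myeloid leukaemia. One sarcoma, of mouse 841, carried NPM1cA with wild-type SMC3. The other sarcomas came from 4 NPM1cA/SMC3+/- mice (948, 1267, 1268_1270 and 2721), mice 948 and 2721 giving 2 tumours each, and the marrows from 9 NPM1cA/SMC3+/- mice. Mice 1267 and 2721 gave both tissues. Whether 1268_1270 stands for 1 animal or a pool of 2 is unclear from its label, and it was counted as 1. The sources used here give no strain or age, no driver of the alleles and no account of which part of Smc3 is altered. Tumours went straight into Trizol, whereas marrow was crushed out of bone, filtered and cleared of red cells first, so tissue and handling cannot be told apart.

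Retinol travels in blood on its carrier protein and is oxidised inside cells, first to retinaldehyde and then, by the retinaldehyde dehydrogenases, to retinoic acid. Retinoic acid binds heterodimers of a retinoic acid receptor and a retinoid X receptor on DNA, and the CYP26 enzymes hydroxylate and so inactivate it. In the myeloid lineage retinoic acid is known for driving granulocyte differentiation, and a fusion of human RARA is the hallmark of acute promyelocytic leukaemia.

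The library of mouse 841 was the shallowest, with 9797201 counts, against 12072482 to 33605464 in the SMC3+/- sarcomas and 12395041 to 39197660 in marrow. All 20 pan-leukocyte genes checked had counts in every library. Their summed level was 9160 CPM (counts per 1000000, on totals scaled by TMM) in 841, 1016 CPM in sarcoma 1268_1270, 7876 to 14631 CPM in the other SMC3+/- sarcomas and 9901 to 18472 CPM in marrow. Sarcoma 1268_1270 stood apart in a second list: 12 adipocyte genes summed to 560 CPM in 841, 50844 CPM in 1268_1270, at most 1106 CPM in the other SMC3+/- sarcomas and at most 277 CPM in marrow. Transcripts longer than 6 kb were low in marrow 737, 779 and 782, with median log2 deviations of -1.97, -1.95 and -1.78 from the median library. They deviated by -0.52 in tumour 1 of mouse 948 and by -0.60 in marrow 1267, and by -0.05 to 0.41 in the other 11 libraries. Smc3 had 137 CPM in 841, 63.6 to 217 CPM in the SMC3+/- sarcomas and 3.53 to 233 CPM in marrow. Its level therefore did not set 841, the 1 sample with wild-type SMC3, apart from the others. The lowest levels, 5.48, 3.53 and 8.46 CPM, were in marrow 737, 779 and 782, which were low in long transcripts.

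The promoters of Rarb and of Cyp26a1, a relative of Cyp26b1, are printed because they hold the same repeat and because the levels of both genes are set beside each other further on. In the RefSeq promoter table (build GRCm38.p6) the 120 bases before the start of Rarb (chr14:16575477-16575596, minus strand) and of Cyp26a1 (chr19:37697688-37697807, plus strand) each held a direct repeat of GTTCA with a spacer, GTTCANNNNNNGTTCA, the form of the known retinoic acid response element. Capitals mark the repeated GTTCA, which reads TGAAC in Cyp26a1 because the repeat lies on the other strand.
Rarb: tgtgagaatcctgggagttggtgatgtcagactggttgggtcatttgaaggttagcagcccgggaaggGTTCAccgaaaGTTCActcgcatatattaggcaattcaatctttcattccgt
Cyp26a1: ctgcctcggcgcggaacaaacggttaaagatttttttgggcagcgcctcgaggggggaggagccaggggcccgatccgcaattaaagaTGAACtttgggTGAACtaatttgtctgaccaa
The repeat lay 52 to 37 bases before the Rarb start and 32 to 17 bases before the Cyp26a1 start. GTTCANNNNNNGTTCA, GGTCANNNNNNGGTCA, GGTCANNNNNNGTTCA and GTTCANNNNNNGGTCA were searched on both strands, and windows holding more than 1 form were counted once. Any of them occurred in 81 of 32851 windows of 300 bases, or 0.247%. Of the 9 genes 8 had an entry, and Rarb was the 1 with a match. Of 20 genes listed as known to respond to retinoic acid, 13 had an entry and Cyp26a1 was the 1 with a match.

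Aldh1a3, on chromosome 7, encodes a retinaldehyde dehydrogenase best known from sensory organs and epithelia. It had 253 CPM in the sarcoma of 841 (2885 counts, 95% exact binomial interval 244 to 263 CPM, which covers counting error only). The SMC3+/- sarcomas had 16.9 CPM in mouse 1268_1270 (372 counts), 1.90 CPM in 1267, 1.16 CPM in 2721 and 1.01 CPM in 948. In marrow it reached 1.36 CPM, with a median of 0, and 5 of 9 marrows had no count. A count of 0 allows up to 3 counts, or 0.0697 to 0.279 CPM depending on the marrow library. The 841 value was thus 15.02 times that of the highest SMC3+/- sarcoma, and the 4 SMC3+/- sarcoma values below it overlapped the marrow range in mice 948 and 2721. Of 16449 genes with at least 20 counts in a tumour, 84 (0.511%) were at least 2 log2 units above the highest SMC3+/- sarcoma mouse in 841. Aldh1a3, at 3.90 units, ranked 21 among the 16449 by that difference and 530 of all 23999 genes by CPM in 841. Scaled to the pan-leukocyte genes, the ratio of 841 to sarcoma 1268_1270 was 1.67, with 841 still the higher.

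**Figure D1:**
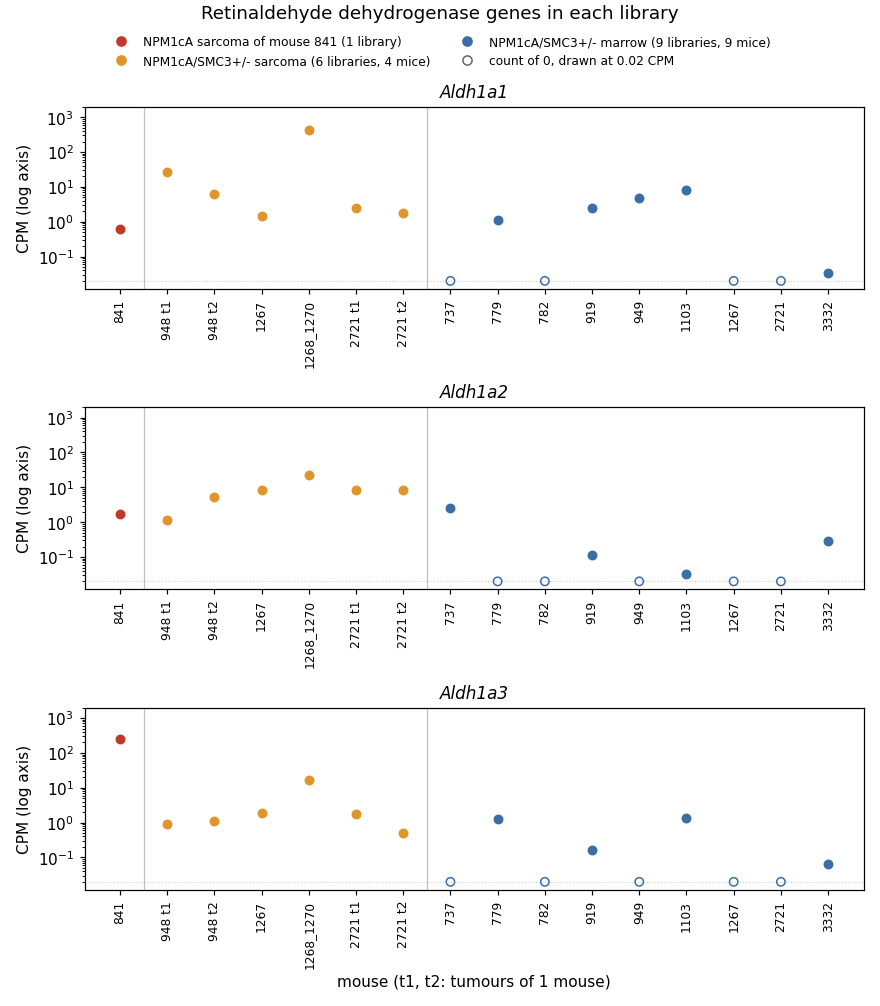
CPM (log axis) of Aldh1a1, Aldh1a2 and Aldh1a3 in each of the 16 libraries: the NPM1cA sarcoma of mouse 841, the NPM1cA/SMC3+/- sarcomas and the NPM1cA/SMC3+/- marrows. Open circles on the dotted line are counts of 0. Aldh1a3 is highest in 841 (253 CPM), Aldh1a1 in sarcoma 1268_1270 (417 CPM), and Aldh1a2 is above every marrow in the sarcomas of 3 of the 4 mice even tumour by tumour.

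The other synthesis genes were low in the tumour that was high in Aldh1a3. Aldh1a1, on chromosome 19, encodes a cytosolic retinaldehyde dehydrogenase that is abundant in liver and fat and in many stem cells. It had 0.615 CPM in 841 (7 counts), below all 4 SMC3+/- sarcoma mice, which had 417 CPM in 1268_1270, 17.9 CPM in 948, 2.15 CPM in 2721 and 1.41 CPM in 1267. Counted together with its near copy Aldh1a7, described further on, 841 was above 2 of the 4. Aldh1a2, on chromosome 9, is the main retinoic acid producing enzyme of the embryo. It had 1.67 CPM in 841 (19 counts), again below all 4 mice, which had 21.9 CPM in 1268_1270, 8.44 CPM in 2721, 8.16 CPM in 1267 and 2.96 CPM in 948. The tumours of mouse 948 differed, with 1.18 CPM in tumour 1 and 5.33 CPM in tumour 2, so that tumour 1 lay below 841.

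Divided by the joint length of all annotated exons, which allows levels to be set side by side between genes, Aldh1a3 made up 98.5% of the 3 retinaldehyde dehydrogenase messages in 841. It was 2.59% to 9.58% of them in the 6 SMC3+/- sarcoma libraries. There Aldh1a2 held a median of 70.8% (8.47% to 89.3%) and Aldh1a1 a median of 21.8% (6.65% to 88.2%). The joint exon length of Aldh1a1 was 4.94 kb, against 2.36 kb for its longest transcript, whereas both were 2.26 kb for Aldh1a2. The shares of these genes therefore depend on the length used. The per-length level of Aldh1a3 in 841 was 54.9 CPM per kb, that of Aldh1a2 0.737 and that of Aldh1a1 0.125 CPM per kb. In sarcoma 1268_1270 the per-length level of Aldh1a1 was 84.4 CPM per kb, so that library held more message of a single synthesis gene than 841 did. Which of the 3 genes was most abundant therefore differed between tumours: Aldh1a3 in 841, Aldh1a1 in 1268_1270 and, at the median and by this length, Aldh1a2 in the SMC3+/- sarcomas.

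Markers of other tissues were read beside these levels. Of 18 epithelial genes 6 had counts in 841, with a summed level of 51.6 CPM, and the same list summed to 6.28 to 119 CPM in the SMC3+/- sarcomas. Epcam, an epithelial adhesion protein, had 25.0 CPM in 841, 0.418 to 4.86 CPM in the SMC3+/- sarcomas and at most 2.79 CPM in marrow. The epithelial cadherin gene Cdh1 had 9.66 CPM in 841, at most 4.86 CPM in the SMC3+/- sarcomas and at most 7.43 CPM in marrow. The defining keratins Krt5, Krt14, Krt8 and Krt18 were all at 0 in 841, as were Trp63 and Esrp1. Another keratin gene, Krt7, had 8.70 CPM in 841 and 0.260 to 34.4 CPM in the SMC3+/- sarcomas, and Dsp, which encodes a desmosome protein, had 6.76 CPM in 841 and at most 4.55 CPM in the SMC3+/- sarcomas. Of 12 adipocyte genes 9 had counts in 841, with Plin1, Lep and Acvr1c at 0. The summed level of 841 was outside that of every SMC3+/- sarcoma library for erythroid, macrophage, and Schwann cell and nerve genes. Erythroid genes summed to 1269.7 CPM in 841, against 49.2 to 751.5 CPM in those libraries. Macrophage genes summed to 532 CPM, against 761 to 1492 CPM. Schwann cell and nerve genes summed to 132 CPM, against 151 to 247 CPM. All of these 841 sums lay inside the marrow range. A part of any of these tissues in the Aldh1a3 level was not tested. In whole tissue, fewer cells of a type and less RNA per cell cannot be told apart.

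In the comparison of SMC3+/- sarcoma with SMC3+/- marrow, which does not use 841, 4 sarcoma mice were set against 9 marrow mice to ask how the tissues differ. Of 14730 genes tested 662 (4.49%) were called higher in sarcoma and 8 (0.0543%) lower by edgeR's quasi-likelihood test at an adjusted p below 0.05. Of the 9 retinoid genes, all of which passed the count filter, 1 was called in either direction, against 670 (4.55%) of all genes: Rbp4, which was higher. Their median log2 fold change was 4.01, against 0.07 over all genes tested. Some marker lists of other tissues stood higher in the same comparison. The median was 9.85 for 11 adipocyte genes (11 called higher), 6.60 for 12 fibroblast genes (8) and 5.84 for 10 skeletal muscle genes (7). It was 5.17 for 10 endothelial genes (4) and 4.42 for 8 pericyte and smooth muscle genes (4). Lower medians were 3.21 for 11 macrophage genes (5) and 2.89 for 2 liver genes (0). Schwann cell and nerve genes had 2.72 (2 of 5 called) and epithelial genes 1.66 (1 of 8). The part of these tissues in the retinoid levels was not tested. Genes close to 0 in marrow passed that filter through the sarcomas. Scaled to pan-leukocyte genes, the median of all genes was 1.97 and 8 of the 9 were called higher, Rara being the exception, so the number of calls depended on the scale.

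None of the synthesis genes was called. Aldh1a1 averaged 109 ± 205 CPM in the 4 sarcoma mice and 1.84 ± 2.88 CPM in the 9 marrows (mean ± SD). The highest marrows, 8.24 CPM in mouse 1103 and 4.64 CPM in mouse 949, lay above the sarcomas of 1267 and 2721. Its log2 fold change was 5.88 ± 1.68 (SE), with an edgeR adjusted p of 0.0648, and 1.82 without sarcoma 1268_1270 (adjusted p = 1.00). It passed the threshold without sarcoma 1267, sarcoma 2721 or marrow 1103 (adjusted p = 0.0461, 0.0498 and 0.0473), and over all alternatives the adjusted p ran from 0.00423 to 1.00. Aldh1a2 averaged 10.4 ± 8.09 CPM in sarcoma and 0.336 ± 0.847 CPM in marrow. It was the 1 gene of the 9 with every sarcoma mouse above every marrow, a pattern that 4.43% of all genes showed. The nearest marrow was that of mouse 737 at 2.58 CPM, the next was at 0.295 CPM, and 5 of 9 had no count. Its log2 fold change of 4.97 ± 1.48 missed the threshold (edgeR adjusted p = 0.0782). It passed without marrow 737, at 7.29 (adjusted p = 0.00475), and without the 3 marrows low in long transcripts and tumour 1 of 948 (adjusted p = 0.0173), and over all alternatives the adjusted p ran from 0.00327 to 0.490. Aldh1a3 differed by 4.01 ± 1.52 (adjusted p = 0.202), and by 1.96 without sarcoma 1268_1270.

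Aldh1a1 has a near copy, Aldh1a7, also on chromosome 19, and the counting could have split reads between them. Their coding sequences (longest open reading frames of the GENCODE transcripts) were identical at 91.6% of 1503 bases, against 68.6% to 70.0% between Aldh1a1, Aldh1a2 and Aldh1a3. The 100 bases before their starts, at chr19:20601868-20601967 (plus strand) and chr19:20727557-20727656 (minus strand) of GRCm38.p6, are printed to show how alike they are. Capitals mark the 6 of 100 bases that differ.
Aldh1a1: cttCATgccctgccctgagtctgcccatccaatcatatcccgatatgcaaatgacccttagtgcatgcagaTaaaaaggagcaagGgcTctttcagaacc
Aldh1a7: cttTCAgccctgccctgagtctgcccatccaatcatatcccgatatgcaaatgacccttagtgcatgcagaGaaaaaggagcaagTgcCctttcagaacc
Aldh1a7 had 2.11 CPM in 841, 125 CPM in sarcoma 1268_1270, at most 0.941 CPM in the other SMC3+/- sarcoma libraries and at most 7.20 CPM in marrow. The libraries highest in Aldh1a1, sarcoma 1268_1270 and, among marrows, mouse 1103, were also the highest in Aldh1a7. Aldh1a7 had more counts than Aldh1a1 in 841, with 24 of Aldh1a7 and 7 of Aldh1a1, and in marrow 779, with 48 and 12. The same held at few counts in marrow 3332, with 6 and 1, and in marrow 782, with 4 and 0. Summed, the pair had 2.72 CPM in 841, above 2 SMC3+/- sarcoma mice (2.42 CPM in 2721 and 1.53 CPM in 1267) and below 2 (542 CPM in 1268_1270 and 18.6 CPM in 948). The low level of Aldh1a1 in 841 is therefore uncertain.

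Rbp4, on chromosome 19, encodes the carrier of retinol in blood and is known as a product of liver and fat. A single count was found in 841 (0.0878 CPM). The SMC3+/- sarcomas had 591 CPM in 1268_1270, 5.04 CPM in 948, 1.54 CPM in 2721 and 0.144 CPM in 1267. The highest marrow, that of mouse 2721, had 0.486 CPM, and 6 of 9 marrows had no count. The groups overlapped, since the sarcoma of 1267 lay below 2 marrows. The log2 fold change was 10.54 ± 1.77, with an edgeR adjusted p of 0.00327, and 3 of the 4 sarcoma mice lay above every marrow. The call rested on 1 library: without sarcoma 1268_1270 the change was 4.52 (adjusted p = 0.337). With the mouse as a block, which compares tissues within mice 1267 and 2721, it was 1.80 (adjusted p = 0.725), and over all alternatives that gave a value the adjusted p ran from 0.000922 to 0.725. Without marrow 2721 the gene did not pass the count filter.

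Adipocyte and liver markers were read beside Rbp4. In sarcoma 1268_1270 all 12 adipocyte genes had counts, and Adipoq, the gene of the fat cell hormone adiponectin, had 2.72 CPM in 841, 4715 CPM in 1268_1270, 0 to 48.0 CPM in the other SMC3+/- sarcoma libraries and at most 2.98 CPM in marrow. Between the tumours of mouse 948, Rbp4 had 10.8 CPM in tumour 2 and 0.705 CPM in tumour 1. The adipocyte genes ran the other way there, with 435 CPM in tumour 2, Adipoq being at 0, and 1106 CPM in tumour 1. All 9 liver genes had counts in tumour 2, where they summed to 363 CPM, 248 CPM of it the albumin gene Alb. They summed to 1.32 CPM in 841 with Alb at 0, 2.35 CPM in tumour 1 of 948, 25.2 CPM in 1268_1270 and 0.403 to 5.36 CPM in marrow, so neither list followed Rbp4 in every tumour. The part of fat or liver tissue in the Rbp4 level was not tested.

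The retinoic acid receptors were carried by Rara and Rarg in all tumours. Rara, on chromosome 11, encodes the receptor best known from the myeloid lineage. It had 56.1 CPM in 841, inside the SMC3+/- sarcomas' 70.4 CPM in 2721, 45.9 CPM in 948, 20.3 CPM in 1268_1270 and 10.8 CPM in 1267. Marrow ranged from 3.75 to 143 CPM, with a median of 48.6 CPM. The 3 marrows low in long transcripts had low levels: 3.87, 12.6 and 3.75 CPM in marrow 737, 779 and 782, and tumour 1 of mouse 948 had 2.94 CPM against 103 CPM in its tumour 2. Sarcoma 1267, which was not low in long transcripts, had 10.8 CPM all the same, and marrow 1267, with a deviation of -0.60, had 32.5 CPM. The part of transcript length in these levels was not tested. Between tissues Rara was not called (log2 fold change -0.80 ± 0.89, edgeR adjusted p = 0.865), and pan-leukocyte scaling turned the sign, to 0.73.

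Rarg, on chromosome 15, is best known from skin and cartilage and is also active in blood stem cells. It had 44.8 CPM in 841, just above the 42.2 CPM of sarcoma 1268_1270, with 33.6 CPM in 948, 22.5 CPM in 2721 and 9.05 CPM in 1267. Tumour 2 of mouse 948, at 59.6 CPM, was higher than 841. Marrow had 1.71 to 49.4 CPM, with a median of 26.5 CPM. The difference between tissues was -0.01 ± 0.74 (edgeR adjusted p = 0.999), and its sign turned under 13 of 22 alternatives, pan-leukocyte scaling giving 2.51. Rarb, on chromosome 14, is itself induced by retinoic acid through the repeat printed above. It had 1.05 CPM in 841 (12 counts), 4.31 CPM in 1268_1270, 1.24 CPM in 948, 0.537 CPM in 2721 and 0.144 CPM in 1267. The marrow maximum was 1.20 CPM, and 5 of 9 marrows had no count. Rarb was not called between tissues (2.22 ± 1.45, edgeR adjusted p = 0.625).

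Per kb of exon, 841 had 12.9 CPM of Rara, 10.5 CPM of Rarg and 0.200 CPM of Rarb, that is 54.6%, 44.6% and 0.849% of the 3. Rara held 16.8% to 75.1% in the SMC3+/- sarcomas and 12.5% to 94.9% in marrow. Rarb stayed at or under 5.32% in the SMC3+/- sarcomas and 0.778% in marrow. The coding sequences of the 3 receptors were identical at 72.5% to 76.3% of aligned bases, less than Aldh1a1 and Aldh1a7.

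Rxra, on chromosome 2, encodes the partner that retinoic acid receptors share with the vitamin D, fatty acid and oxysterol receptors. It had 26.0 CPM in 841, below all 4 SMC3+/- sarcoma mice, which had 234 CPM in 1268_1270, 58.8 CPM in 948, 54.3 CPM in 1267 and 40.3 CPM in 2721. Tumour 1 of mouse 948, at 24.4 CPM, was lower than 841. Marrow had 14.3 to 58.0 CPM, with a median of 32.9 CPM, and overlapped every sarcoma but 1268_1270 and 948. The tissues differed by 1.46 ± 0.46 (edgeR adjusted p = 0.104), by 0.46 without sarcoma 1268_1270 and by -0.09 with the mouse as a block. Per kb, Rxrb, the broadly expressed relative, was the larger share of the 3 retinoid X receptor messages: 82.7% in 841, 18.0% to 81.2% in the SMC3+/- sarcomas and 70.5% to 91.7% in marrow. The low end, 18.0%, was sarcoma 1268_1270, where Rxra held 67.3%.

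**Figure D2:**
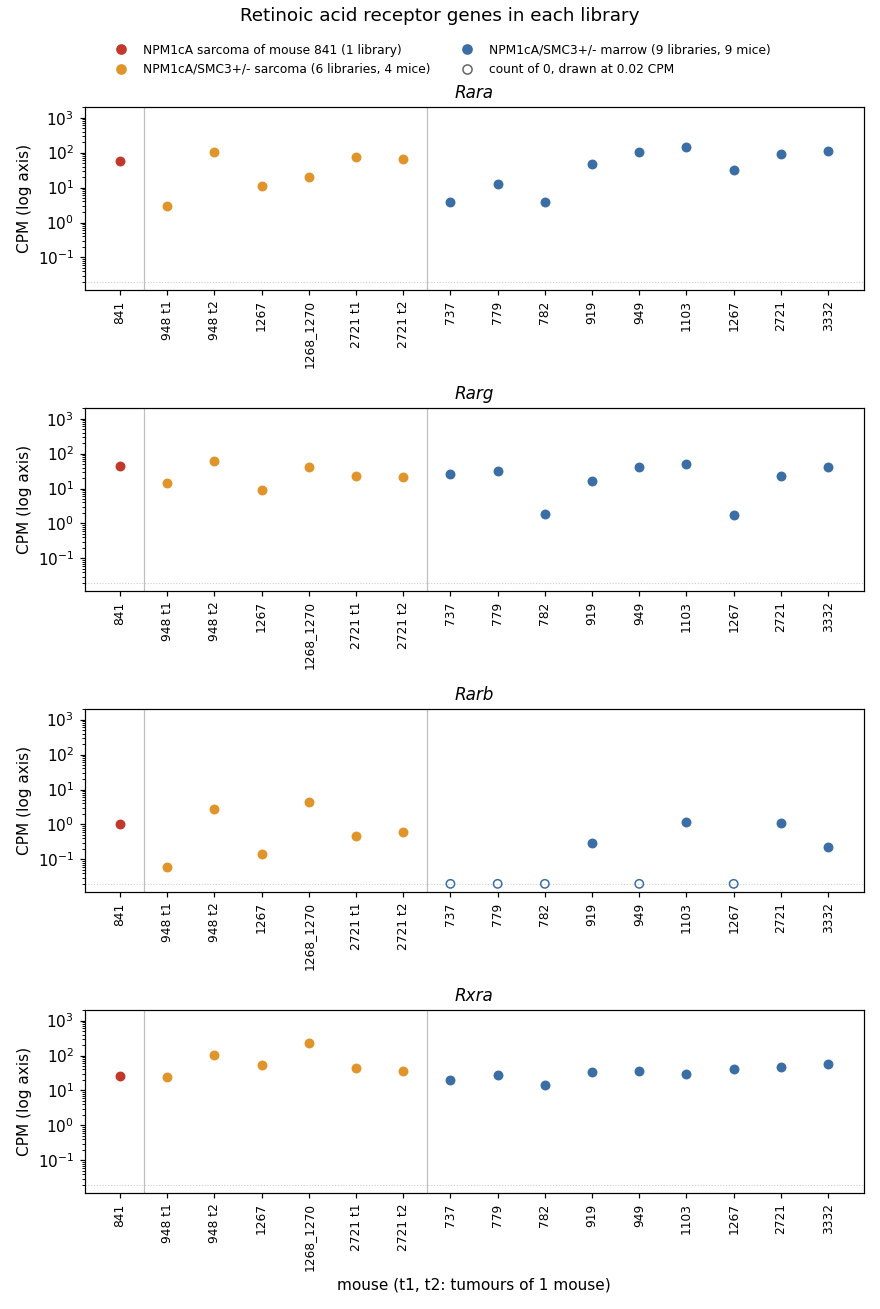
CPM (log axis) of the receptor genes Rara, Rarg, Rarb and Rxra in the 16 libraries, in the order NPM1cA sarcoma of mouse 841, NPM1cA/SMC3+/- sarcomas, NPM1cA/SMC3+/- marrows, with counts of 0 as open circles on the dotted line. Rara and Rarg have counts in all libraries, Rarb stays at or under 4.31 CPM, and Rxra is highest in sarcoma 1268_1270 (234 CPM).

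Cyp26b1, on chromosome 6, encodes a hydroxylase that clears retinoic acid in skin, limb and gonad. It had 2.55 CPM in 841 (29 counts), inside the SMC3+/- sarcomas' 6.72 CPM in 948, 4.70 CPM in 2721, 2.54 CPM in 1268_1270 and 1.04 CPM in 1267. The marrow of mouse 1103 reached 1.14 CPM, the next 0.279 CPM, and 5 of 9 had no count. Only the sarcoma of 1267 lay below that highest marrow. The log2 fold change was 4.21 ± 1.33 (edgeR adjusted p = 0.106). Unlike that of Rbp4 it moved little without sarcoma 1268_1270, to 4.34, and without marrow 1103 it passed the threshold at 5.70 (adjusted p = 0.0168), with a range of 0.00815 to 1.00 over all alternatives. DESeq2 called it (adjusted p = 0.0341), and likewise Aldh1a2 (adjusted p = 0.0327).

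Cyp26a1, the hydroxylase gene with the printed repeat, was the most abundant of the 3 CYP26 genes in 841. It had 120 CPM there, 130 CPM in the sarcomas of 948, 67.6 CPM in 1267, 29.4 CPM in 2721 and 2.95 CPM in 1268_1270. Marrow ranged from 0 to 171 CPM, with a median of 24.5 CPM. Per kb it made up 91.2% of the 3 messages in 841 and 72.9% to 96.1% in the SMC3+/- sarcomas. Rarb, whose promoter holds the same repeat, did not follow its order: sarcoma 1268_1270 was the highest of the 4 SMC3+/- mice for Rarb and the lowest for Cyp26a1. Between tissues Cyp26a1 differed by 0.47 ± 1.40 (edgeR adjusted p = 0.977).

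**Figure D3:**
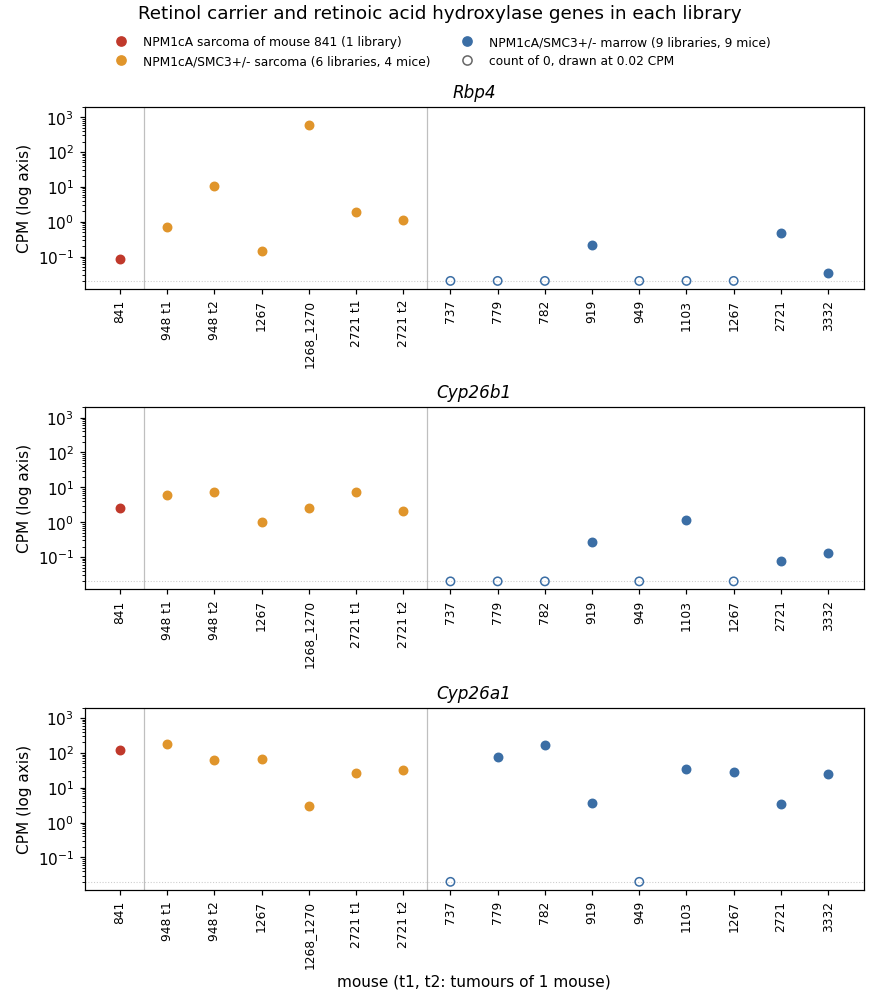
CPM (log axis) of Rbp4, Cyp26b1 and Cyp26a1 in the 16 libraries, in the order NPM1cA sarcoma of mouse 841, NPM1cA/SMC3+/- sarcomas, NPM1cA/SMC3+/- marrows, with counts of 0 as open circles on the dotted line. Rbp4 reaches 591 CPM in sarcoma 1268_1270 and has 1 count in 841, and Cyp26a1 runs from 0 to 171 CPM within marrow.

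Over the 9 genes, positions were read from log2 CPM with a prior count of 2. On that scale 841 lay above all 4 SMC3+/- sarcoma mice for 2 (Aldh1a3 and Rarg). It lay below all 4 for 3 (Aldh1a1, Aldh1a2 and Rxra) and between them for 4, Rbp4 among these. By CPM without the prior count, Rbp4 in 841 lay below all 4 as well, at 0.0878 CPM (1 count) against at least 0.144 CPM. With Aldh1a1 and Aldh1a7 summed, Aldh1a1 left the set below all 4. Over the 16449 genes, 841 was above all 4 for 9.70% and below all 4 for 16.5%, and since the choice of genes used this contrast nothing is read from the count. Sarcoma 1268_1270 was the highest of the 4 SMC3+/- mice for 7 of the 9 genes, all but Rara and Cyp26b1. It was the highest for 34.0% of all genes tested.

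**Figure D4:**
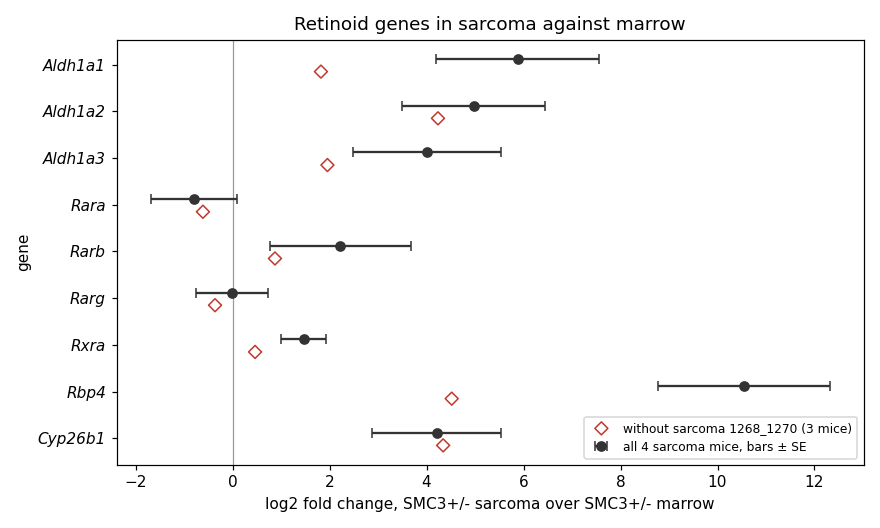
Log2 fold change of the 9 genes, SMC3+/- sarcoma over SMC3+/- marrow, with all 4 sarcoma mice (filled circles, bars ± SE) and without sarcoma 1268_1270 (open diamonds, 3 mice). Without that sarcoma Rbp4 moves to 4.52 and Aldh1a1 to 1.82, whereas Aldh1a2 and Cyp26b1 stay above 4.

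Other genes of the pathway were read from lists of enzymes, carriers, receptors and targets. The counts of calls cover only genes that passed the count filter, and over all genes tested 4.49% were called higher. Of 17 retinol oxidation and storage genes tested, 1 was called higher in sarcoma and none lower, with a median log2 fold change of 0.15. That gene was Adh1, a class I alcohol dehydrogenase able to oxidise retinol. In 841 it had 0.439 CPM, under all 4 SMC3+/- sarcoma mice, which had 178 CPM in 1268_1270, 7.72 CPM in 2721, 6.92 CPM in 948 and 1.12 CPM in 1267. It had no count in any marrow, so it passed the count filter through the sarcomas alone (edgeR adjusted p = 0.0144). A floor of 3 counts pooled over all marrows was 0.0146 CPM, below the 0.0697 to 0.279 CPM of single marrows. Against that pooled floor the mean of the sarcomas, 48.3 CPM, was at least 3320-fold higher, a bound for the group averages and not for single mice. Without sarcoma 1268_1270 that bound was 361-fold. Its call held without sarcoma 1268_1270 (adjusted p = 0.0483) and was lost without the 3 marrows low in long transcripts and tumour 1 of 948 (adjusted p = 0.0521). None of 7 further aldehyde dehydrogenases tested was called, with a median of -0.48, and none of the 3 other hydroxylases, Cyp26a1, Cyp26c1 and Cyp2s1.

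Among 12 retinoid binding and uptake genes in the data, 6 passed the count filter and were tested. Against 4.49% of all genes, 4 of those 6 were called higher and none lower. Of these, Rbp7, a retinol binding protein of fat and vessels, differed by 6.70 ± 1.71 (edgeR adjusted p = 0.0372) and Lrp2, an endocytic receptor that takes up carrier-bound retinol in kidney, by 5.90 ± 1.498 (adjusted p = 0.0355). Cd36, a fatty acid transporter, had 20.03 CPM in 841 and averaged 1300 ± 2389 CPM in SMC3+/- sarcoma and 12.3 ± 14.3 CPM in marrow (6.71 ± 1.31, edgeR adjusted p = 0.00794). Without sarcoma 1268_1270 none of the 4 was called. For Rbp7, Lrp2 and Cd36 the adjusted p was then 0.997, 0.736 and 0.257. Rbp7 and Lrp2 also lost the call when any of the marrows 737, 779, 782, 919, 949, 1267 and 3332 was left out, and Rbp7 without marrow 2721.

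Of 17 other nuclear receptor and cofactor genes tested, Ppara and Nr1h3, receptors of fatty acids and oxysterols that pair with retinoid X receptors, were called higher (5.57 ± 1.48 and 4.03 ± 0.96, edgeR adjusted p = 0.046 and 0.0249), and none lower. Of 15 genes known to respond to retinoic acid 4 were called higher, with a list median of 1.94. Among the 4 were the transglutaminase gene Tgm2 (5.51 ± 1.06), the adipokine gene Rarres2 (4.08 ± 0.75) and the homeobox gene Meis2 (7.20 ± 1.38). Over all genes the share called higher was 4.49%, and nothing is read from these counts of calls. The calls of Ppara, Nr1h3, Tgm2, Rarres2 and Meis2 were lost without sarcoma 1268_1270, with adjusted p-values of 0.125 to 0.706. Ppara also lost its call without sarcoma 948 or 1267, or any marrow other than 1103. Without marrow 737, 779 and 782 and tumour 1 of 948, the calls of Ppara, Nr1h3, Rbp7 and Lrp2 were lost as well (adjusted p = 0.166, 0.121, 0.206 and 0.119). Among the other responsive genes, Cyp26a1 and Dhrs3, a retinaldehyde reductase, were not called (Dhrs3 103 ± 50.7 CPM in sarcoma and 47.9 ± 24.1 CPM in marrow, edgeR adjusted p = 0.202).

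In 841 the pathway genes standing highest against the SMC3+/- sarcomas were few. Hoxb1, a homeobox gene under direct retinoic acid control in the hindbrain, had 3.43 CPM (39 counts), against at most 0.504 CPM in an SMC3+/- sarcoma mouse and 0.998 CPM in marrow. Vdr, the vitamin D receptor, had 26.1 CPM, against 0.862 to 5.81 CPM in the SMC3+/- sarcoma mice and at most 3.66 CPM in marrow. Meis1, a HOX partner of leukaemia stem cells, had 39.7 CPM, against 1.64 to 17.8 CPM in the SMC3+/- sarcoma mice, though the marrow of mouse 1103 had 37.3 CPM. Cyp26c1, the remaining CYP26 gene, had 9.31 CPM, against 0.136 to 5.004 CPM in the SMC3+/- sarcoma mice and at most 3.68 CPM in marrow. The coactivator gene Ncoa3 had 73.9 CPM, against 36.4 to 54.8 CPM in the SMC3+/- sarcoma mice, and marrow reached 132 CPM. The folate enzyme gene Aldh1l2 had 4.48 CPM, against 0.952 to 3.59 CPM, but tumour 2 of mouse 948 had 7.77 CPM and marrow reached 7.43 CPM. Other genes known to respond to retinoic acid lay lower in 841. Dhrs3 had 32.8 CPM, against 60.6 to 177 CPM in the SMC3+/- sarcoma mice, and Meis2 had 0.263 CPM (3 counts), against 1.57 to 26.7 CPM. Rarres2, at 10.6 CPM, was just under their 10.8 to 412 CPM, and Tgm2, at 42.1 CPM, was inside their 17.3 to 756 CPM.

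The leading genes of the remaining lists were near or under the highest SMC3+/- sarcoma. The ratio of 841 to that sarcoma was 0.988 for the carotenoid cleaving enzyme Bco2, 0.983 for the mitochondrial Aldh2, 0.921 for Cyp26a1, 0.544 for the retinol dehydrogenase Rdh14 and 0.439 for Fabp5, which carries retinoic acid and fatty acids. Aldh2 was the most abundant of these, with 935 CPM in 841, 671 to 951 CPM in the SMC3+/- sarcoma mice and 601 to 1779 CPM in marrow.

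The genes whose log2 CPM followed that of Aldh1a3 most closely over the 14 samples of 1 mouse and tissue, among 10486 genes compared, were Ikbip (Pearson r = 0.906), Rcn3 (0.888), Car4 (0.867), Igf1 (0.860) and Ptrf (0.843). These values describe 14 points that share the split into 5 sarcomas and 9 marrows. Car4, a membrane carbonic anhydrase, had 1154 CPM in 841, 1.53 to 343 CPM in the SMC3+/- sarcoma libraries and at most 14.2 CPM in marrow. Igf1, a growth factor, had 360 CPM in 841, 319 CPM in 1268_1270 and at most 81.5 CPM in the other SMC3+/- sarcomas. Without 841 the closest were Ptrf (0.928), Ikbip (0.924), Igfbp7 (0.921), Arvcf (0.907) and Igf1 (0.900).

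Among the genes that followed Rbp4 most closely were Aldh6a1 (0.934), Cfd (0.929), Rarres2 (0.922) and Eepd1 (0.919). Cfd, the adipocyte protease adipsin, had 17.5 CPM in 841, 8200 CPM in 1268_1270 and at most 366 CPM in the other SMC3+/- sarcomas. Aldh1a1 was followed by Focad (0.908), Car3 (0.888), Eltd1 (0.851), Aktip (0.849) and Crebl2 (0.846). Car3, a carbonic anhydrase abundant in fat and muscle, had 6.499 CPM in 841 and 22808 CPM in 1268_1270. These 9 genes had their highest level in sarcoma 1268_1270.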

How the data were processed

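The authors deposited whole-number counts per gene symbol for 16 libraries, all mapped by column name, with 0 columns of other samples. The submitters' processing notes name STAR, DESeq, DESeq2 and the mm9 build, with no version or role stated, and the sources used here give no strand setting. Libraries of a mouse and tissue were summed to 14 samples. Levels are CPM on TMM totals. The 13 SMC3+/- samples were tested with edgeR 4.0.16 (R 4.3.3; filterByExpr, robust quasi-likelihood fit, two-sided, Benjamini-Hochberg over 14730 genes, adjusted p under 0.05). DESeq2 1.42.0, 3 scalings, 2 count filters, libraries as units, the mouse as block, 4 libraries left out and each mouse left out were alternatives. The 4 libraries were marrow 737, 779 and 782 and tumour 1 of mouse 948. Marrow 1267 stayed in, although its long transcripts deviated by -0.60, further than the -0.52 of that tumour. SE is the absolute log2 fold change over the square root of F, and log2 CPM used a prior count of 2. On simulated counts for this comparison (14730 genes) the fit made 89 calls, 1 of them false, finding 26 of the 100 genes given a 4-fold change and 62 of the 100 given a 16-fold change.

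The labels name mice 1267 and 2721 for both tissues, so samples are paired by animal there. The correlation of same-mouse deviations was 0.294 and 0.215. The block fit had 1 residual degree of freedom. The labels give no batches. The genes and lists were chosen with earlier results of these data known. Genes outside the 9 were named by rule: called genes of each list, the 2 per list with the highest ratio of 841 to the highest SMC3+/- sarcoma mouse (at least 20 counts in 841), the 5 genes most correlated with Aldh1a3, Rbp4 and Aldh1a1, and markers moving with a member. Some genes that met the rule are not reported here. Smc3, Dhrs3 and Rxrb were added after their values were seen. Exon lengths came from GENCODE M21, a later build than mm9, by symbol (95.7% of the 9339 genes averaging 3 or more in log2 CPM matched). Promoters came from RefSeq, GRCm38.p6. Intervals and floors (3 counts) cover counting error only, since reads carried no molecular identifiers.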

Additional observations from a re-analysis of the deposited data

Results flagged for a closer look

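Levels of the 9 genes, and of Aldh1a7, were checked for a single sample far from its group in the SMC3+/- sarcoma mice and in the marrow mice. There were 20 groups in all, of which chance marks about 1 in 20 if values are normally distributed. That rate does not hold for groups with many counts of 0. There were 2 such samples, both marrows, in genes (Aldh1a2 and Cyp26b1) with 5 of 9 marrows at 0. Aldh1a2 had 2.579 CPM in the marrow of mouse 737, where the next marrow had 0.295 CPM, and that library was low in long transcripts. Cyp26b1 had 1.135 CPM in the marrow of mouse 1103, where the next had 0.279 CPM. The same marrow was the highest of the 9 in Aldh1a1, Aldh1a3, Rara, Rarb and Rarg.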

How the results depend on the processing

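Counts of genes called higher and lower in sarcoma, 662 and 8, and of retinoid genes called, 1, moved as follows. DESeq2 gave 99 lower and 2 retinoid genes. Pan-leukocyte scaling gave 8064 higher and 8 retinoid genes. No count filter gave 1355 higher, 13 lower and 2 retinoid genes, and a filter of 1 CPM in 4 samples 0 retinoid genes. Libraries as units gave 17 lower. The mouse as replicate block gave 107 higher and 23 lower, and it called Aldh1a1 (8.56, adjusted p = 0.0257) in place of Rbp4. That fit compares tissues within mice 1267 and 2721. Their marrows had 0 counts of Aldh1a1 and their sarcomas 1.41 and 2.15 CPM, so the size of that change is set against counts of 0. Without marrow 737, 779 and 782 and tumour 1 of mouse 948 there were 300 higher, 3 lower and 2 retinoid genes (Aldh1a2 and Rbp4). Leaving out each sample of 1 mouse and tissue gave 170 to 762 higher, 0 to 16 lower and 0 to 3 retinoid genes. The lowest of each came without sarcoma 1268_1270. The count called lower moved by over 1.5 times in 10 of these 13 fits. Of the retinoid genes 2 were called without sarcoma 1267, sarcoma 2721 or marrow 737, 3 without marrow 1103 and 0 without marrow 2721, where Rbp4 did not pass the filter. The sign turned for Rara under pan-leukocyte scaling (0.73) and for Rxra under the block (-0.091). For Rarg it turned under DESeq2 (0.019), median-of-ratios scaling (0.019), pan-leukocyte scaling (2.51), libraries as units (0.15) and the block (0.98). It also turned for Rarg under the removal of those 4 libraries (0.14) and with single samples left out (-0.36 to 0.29). The cause was not tested. The Aldh1a3 ratio of 841 to the highest SMC3+/- sarcoma, 15.02, was 13.4 with median-of-ratios scaling, 18.4 with total counts and 1.67 with pan-leukocyte scaling, and its level of 253 CPM was 294 with total counts and 270.0 with pan-leukocyte scaling. Rbp4 did not pass the filter with 1 CPM in 4 samples or with libraries as units either, and Rarb did not pass the first of these. DESeq2 gave no adjusted p for Aldh1a1, Aldh1a3, Rxra and Rbp4. Depth limits Rarb and Rbp4 in 841, which had 12 counts and 1 count.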
